A study of Mus musculus with 96 samples.

Results

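The clones of a mouse leukaemia started from granulocyte-monocyte progenitors (GMP) were compared between bone marrow and spleen of the same immunodeficient NSG mouse. The 8 libraries were the marrow and the spleen of mice 13, 14, 15 and 16, out of 48 deposited barcode libraries, and they were chosen by host, cell of origin and tissue as the labels give them. Within them only mCHERRY barcodes, the set that the labels tie to GMP-derived cells, were used, and each library was rescaled to the total of those barcodes. The starting cell pool of the same origin, sampled before transplantation and present as 1 library, served as reference. Immunocompetent Ptprca mice with the same leukaemia, and NSG mice with leukaemia of LSK origin (defined below), served for comparison.

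The study labelled mouse progenitors with SPLINTR, a library of heritable DNA barcodes, and with MLL-AF9, a fusion oncogene delivered by retrovirus. Donor cells came from the marrow of female C57BL/6 mice aged 6-8 weeks. GMP were sorted as Lin-, c-Kit+, CD34+ and Fc gamma receptor high cells, transduced with both constructs and cultured with IL-3, IL-6 and SCF, which all groups used here share, as do the LSK-origin cells (Lin-, c-Kit+, Sca-1+) named below. The labels give no age or sex of the recipient mice, no time of collection and no cell number.

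A barcode integrated in the genome is copied at each division, so its share of the barcode reads tracks the share of a founder cell's descendants, called a clone here. MLL-AF9 leukaemia arises readily from GMP and from more immature progenitors, and grows in both marrow and spleen. Marrow is the usual site of blood formation, whereas the mouse spleen is also a site of blood formation outside the marrow. NSG mice lack B, T and NK cells, so transplanted cells meet no adaptive immune response there. Barcodes carry no gene expression, so the tissue and the cell type could not be checked with marker genes. A barcode share is a proportion: a clone that is larger cannot be told apart from others that are smaller. No barcode sequence is given, since clones are identified by number only.

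Each library rested on 5785591 to 7376414 barcode reads, and the pool on 4856030, taking the smallest step between values as 1 read, which holds if the PCR duplicates were summed and not averaged. The share of mCHERRY reads was at least 99.4% in each of the 8 libraries, which is the label check these data allow. Reads of GFP barcodes, which mark cells of LSK origin, made up 0.462% of the spleen library of mouse 13 and 0.538% of that of mouse 14, against at most 0.043% in the other 6. At these recovered depths the 95% Wilson interval of the largest clone reached 0.0384 percentage points or less to either side, and a clone with 0 reads could hold up to 5.19e-05% of a library. Both limits cover counting error only, since reads are counted and PCR copies of 1 molecule may be counted separately. Each mouse counted as 1 replicate, and whether the 2 tissues of a mouse were prepared together is not stated.

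Marrow and spleen were both dominated by the same few clones, and neither tissue was clearly the more diverse. Marrow held 37, 34, 30 and 34 clones at or over 100 CPM (counts per 1000000 mCHERRY reads) in mice 13 to 16, and spleen held 31, 25, 31 and 32. The marrow count was higher in 3 of 4 mice and lower in mouse 15, and the tissues overlapped. The means were 33.8 ± 2.87 in marrow and 29.8 ± 3.20 in spleen (SD, n = 4), a mean log2 ratio of 0.18 ± 0.21 (exact two-sided sign-flip permutation p = 0.25, adjusted over 3 measures 0.375). With 4 mice that test cannot go below 0.125, so no difference in clone number could have passed. The direction depended on the minimum: at or over 10 CPM the spleen held more clones in all 4 mice, with 61, 59, 56 and 75 against 55, 52, 52 and 69 in marrow, a log2 ratio of -0.14 (exact permutation p = 0.125).

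The number of effective clones, the count of equally large clones with the same Shannon entropy, was 8.04, 8.11, 5.66 and 7.74 in marrow and 7.24, 6.03, 7.25 and 7.44 in spleen. Mouse 15 again ran opposite to the other 3 mice, with the lowest marrow value. The mean log2 ratio was 0.07 ± 0.32 (exact permutation p = 0.625, adjusted 0.625) and changed sign to -0.05 without mouse 14. The largest clone held 31.2% ± 3.38 of marrow and 33.6% ± 3.09 of spleen reads (SD, n = 4), 2.4 percentage points less in marrow on average (exact permutation p = 0.25, adjusted 0.375). Without mouse 14 that gap was 0.44 points. Using mice 15 and 16 alone leaves out both spleens with over 0.1% GFP reads. In these mice the log2 ratio was 0.02 for detected and -0.15 for effective clones, and the largest clone was 1.03 points lower in marrow. The 10 largest clones of a library together took 94.0% to 98.4% of its reads, against 20.4% in the pool, where 607 clones reached 100 CPM and the effective number was 269.

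**Figure D1:**
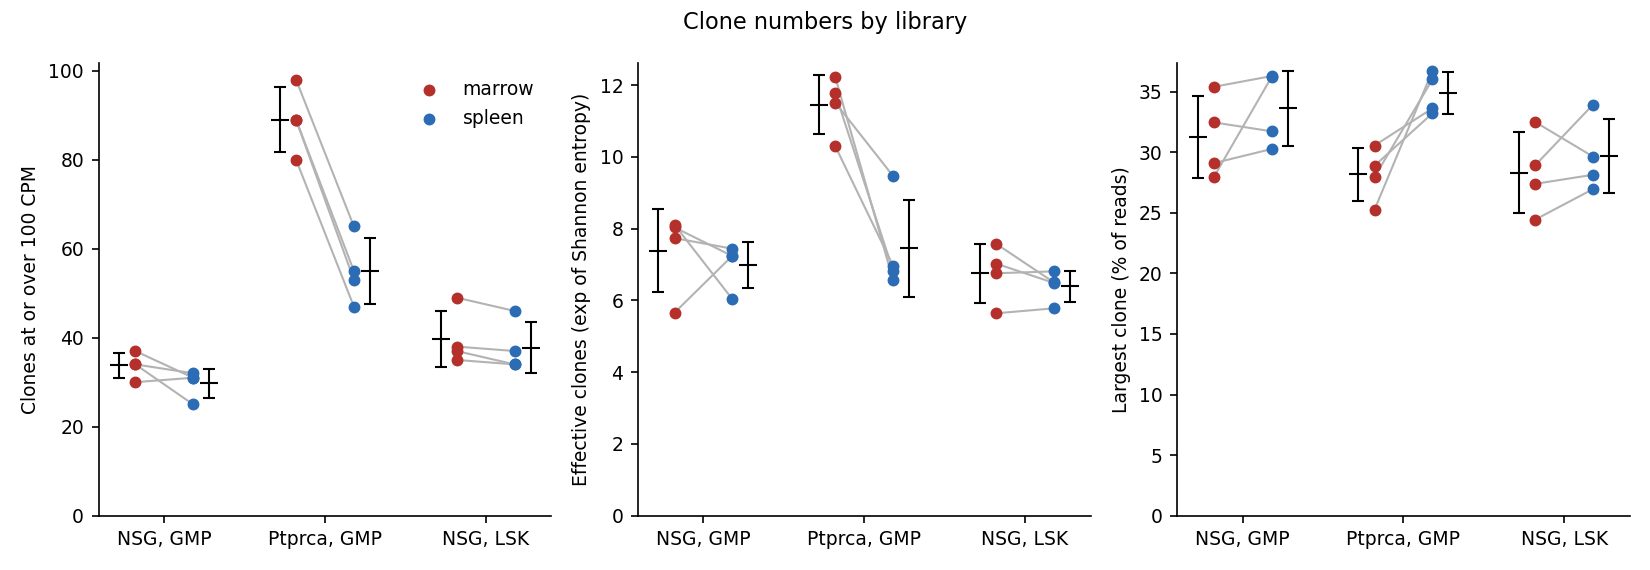
Clones at or over 100 CPM, effective clones and the share of the largest clone (percent of reads) for marrow (red) and spleen (blue) of each mouse, with lines joining the tissues of 1 mouse and bars giving mean ± SD (n = 4). In NSG mice with GMP leukaemia the tissues overlap in all 3 panels, while in Ptprca mice with the same leukaemia they overlap in none.

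The same leukaemia in Ptprca hosts and leukaemia of LSK origin in NSG hosts were used to ask whether the small tissue difference was particular to these mice. Ptprca mice (mice 5 to 8), which are immunocompetent, held 89 ± 7.35 detected clones in marrow and 55 ± 7.48 in spleen, a log2 ratio of 0.70 ± 0.08 (SD, n = 4). The ratio in NSG mice was smaller by 0.52 on the log2 scale, and no NSG mouse reached the lowest Ptprca mouse (0.44 against 0.59). An exact two-sided permutation test of 4 against 4 mice gave p = 0.0286, the smallest it allows, and 0.114 after adjustment over 4 such tests. The difference did not pass, but a test alone at that smallest value could not have passed this adjustment. At a minimum of 1000 CPM it was -1.03 (exact permutation p = 0.0286, adjusted 0.114), and at 10 CPM it turned to 0.44 (exact permutation p = 0.886). At that minimum the spleen of Ptprca mouse 7 held 904 clones, against 111 to 200 in the other Ptprca spleens. The ratio of effective clones was lower in NSG than in Ptprca mice by 0.56 (exact permutation p = 0.0571, adjusted 0.114). Against NSG mice with LSK leukaemia (mice 9 to 12), whose detected clones were counted with GFP barcodes, the ratio differed by 0.11 for detected clones (exact permutation p = 0.4, adjusted 0.533; 0.0251 without mouse 14 and 0.189 without mouse 15) and by -0.00332 for effective clones (exact permutation p = 0.971, adjusted 0.971).

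The clone that ranked first differed between marrow and spleen in all 4 mice, although the same 2 clones held the top place throughout. Clone 626161 (mCHERRY_2_Barcode_626161, as all clones are named here by their barcode number) made up 32.5%, 27.9%, 30.8% and 29.1% of marrow and 27.1%, 24.5%, 36.3% and 27.4% of spleen in mice 13 to 16. Clone 283858 made up 21.7%, 25.1%, 35.4% and 21.2% of marrow and 31.7%, 36.2%, 23.6% and 30.3% of spleen. Clone 626161 thus led the marrow and clone 283858 the spleen in mice 13, 14 and 16, and the order was exchanged in mouse 15. Both clones together took 50.3% to 66.2% of marrow and 57.6% to 60.7% of spleen. In the pool they held 2.97% and 0.491%, so clone 283858 was 52.6 times its pool share in marrow and 62 times in spleen, and clone 626161 10.1 and 9.68 times.

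The marrow to spleen ratio of clone 626161 averaged 0.08 ± 0.22 on the log2 scale (SD, n = 4; limma adjusted p = 0.898) and that of clone 283858 -0.25 ± 0.56 (limma adjusted p = 0.863). All ratios of single clones were taken on log2(CPM + 10), which understates those of rare clones. For clone 283858 the ratios were -0.55, -0.53, 0.59 and -0.52 in mice 13 to 16. The 3 negative values were close together, and without mouse 15 this clone was called higher in spleen, at a log2 ratio of -0.53 (limma adjusted p = 0.00174). Mouse 15 is the one mouse of opposite sign, so leaving it out favours such a call. Leaving out any other mouse gave no call. With all 4 mice no difference was detectable for it.

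No single clone differed detectably between the tissues over the 4 mice. Of 45 clones with a mean of at least 100 CPM, limma with the mouse as a block called 0 (0% of those tested) at an adjusted p under 0.05. In that fit 4 had an unadjusted p under 0.05 (clones 109489, 88201, 321280 and 588934, all with a mean ratio towards marrow). Clone 588934 reached the minimum through 1 marrow, at 1.05% in mouse 14, and its log2 ratio was -2.02 in mouse 16. Mice 15 and 16 alone gave 0 calls among 39 clones, with 0 at an unadjusted p under 0.05. edgeR on the recovered reads also called 0, with 1 clone at an unadjusted p under 0.05 by library size and 0 with TMM scaling. The median of the 45 mean log2 ratios was 0.08, with 24 clones above 0 and 21 below, and it was -0.42 in edgeR by library size and -0.33 with each library centred on its median clone. The median within a mouse ran from -0.41 in mouse 15 to 0.19 in mouse 13.

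**Figure D2:**
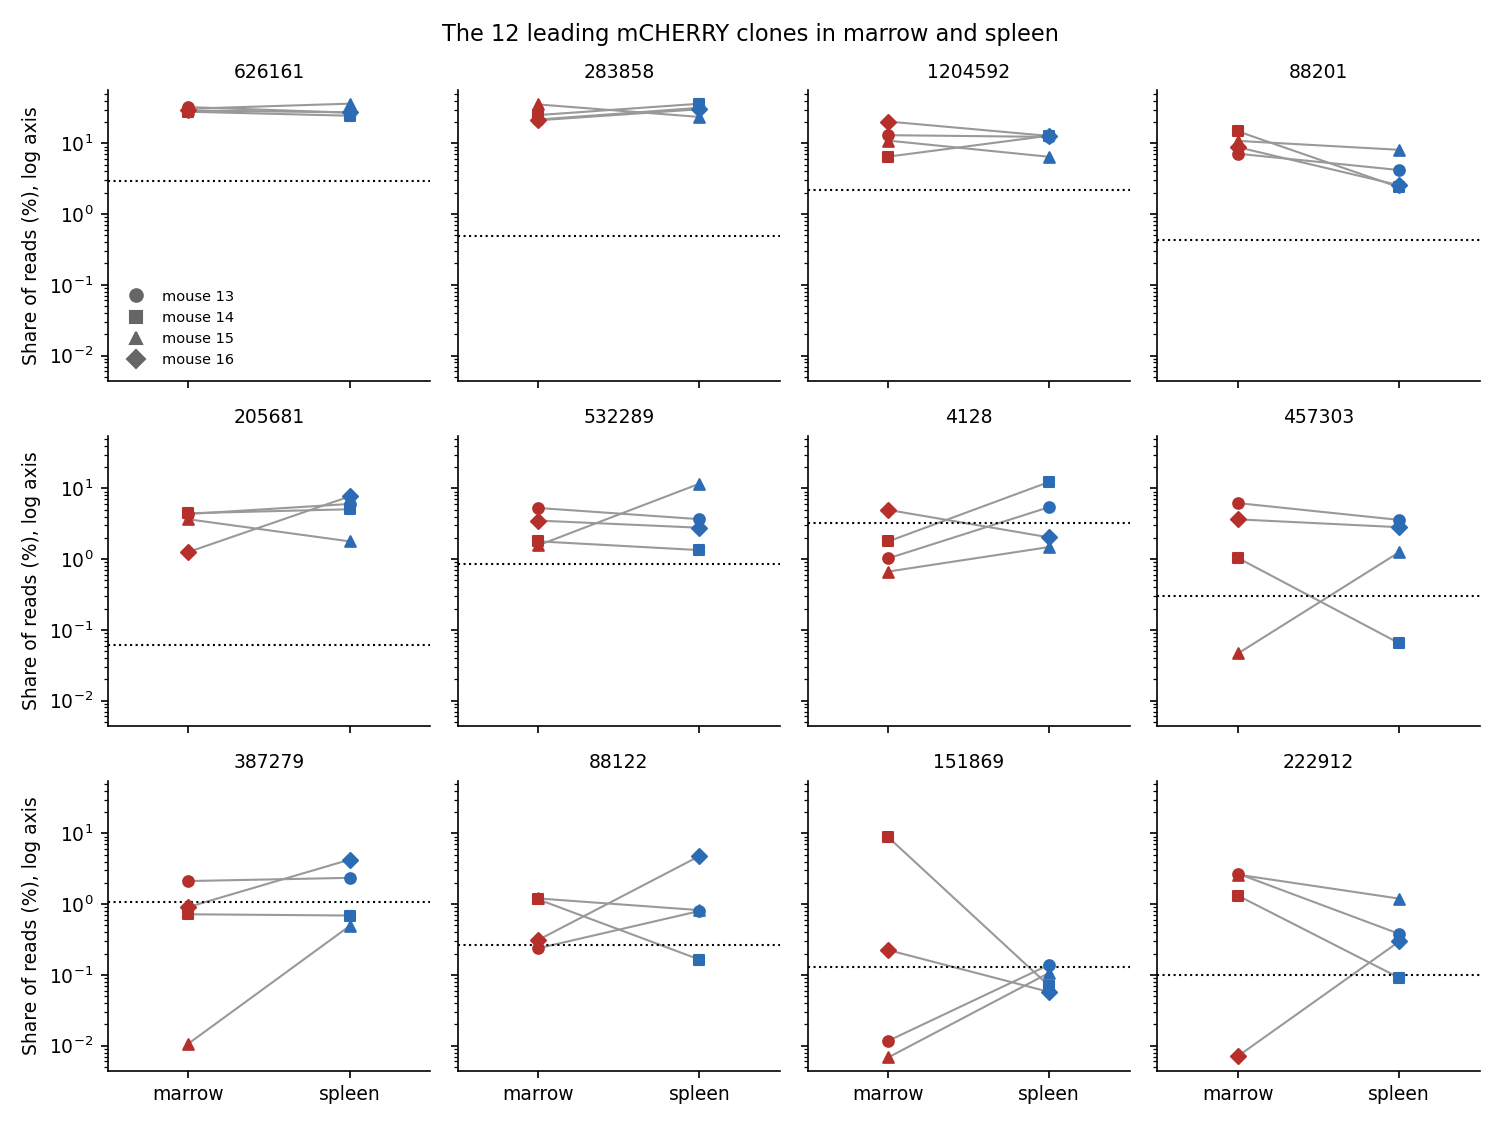
Share of mCHERRY reads (percent, log axis) of the 12 leading clones in marrow (red) and spleen (blue), with a symbol for each mouse, lines joining its tissues, and the pool share as a dotted line. Clone 88201 is lower in spleen than in marrow in every mouse, and clone 151869 stands at 8.87% in 1 marrow and at 0.225% or less in the other 7 libraries.

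Clone 88201 was the only one of the 12 leading clones that was higher in marrow in all 4 mice. It made up 7.12%, 14.7%, 10.8% and 8.80% of marrow and 4.19%, 2.39%, 8.09% and 2.55% of spleen, against 0.436% of the pool. The highest spleen value, in mouse 15, exceeded the lowest marrow value, in mouse 13, so the tissues overlapped across mice but not within a mouse. Its marrow share was 2.64 times its spleen share on average, a log2 ratio of 1.4 ± 1.0 (SD, n = 4), and it did not pass (limma adjusted p = 0.371). The ratio spanned 0.42 in mouse 15 to 2.62 in mouse 14, and its lowest value over all alternatives was 0.99.

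Clones 321280, 205626 and 109489, all far less abundant, shared that direction. They were named here for having the same sign in all 4 mice, so that choice set their direction and part of their ratio. Clone 109489 had a spleen mean of 0.00105%, under the 100 CPM minimum, and was tested because of its marrow values. Clone 321280 held 0.458%, 0.33%, 0.214% and 0.243% of marrow and 0.00756%, 0.00603%, 0.0435% and 0.00836% of spleen, so that every marrow was above every spleen. Clone 205626 held 0.317%, 0.14%, 0.0812% and 0.275% of marrow and 0.186%, 2.93e-05%, 0.017% and 0.0087% of spleen, the lowest of which lies under the 3-read limit. Clone 109489 held 0.0336%, 0.0331%, 0.00585% and 0.14% of marrow and 0.000518%, 0.00136%, 0.00185% and 0.000477% of spleen, again with no overlap. Their mean log2 ratios were 4.57 ± 1.60, 3.72 ± 2.81 and 4.05 ± 2.19 (SD, n = 4; limma adjusted p = 0.371, 0.583 and 0.241), that is 23.7-fold, 13.2-fold and 16.6-fold more in marrow. The sizes depended on the setting and the mice: the log2 ratio of clone 321280 was 3.49 in mice 15 and 16 alone and 5.34 without mouse 15. That of clone 205626 was 2.58 with a pseudocount of 100 CPM, 2.60 without mouse 14 and 4.71 without mouse 13. That of clone 109489 was 2.06 with a pseudocount of 100 CPM, 3.21 without mouse 16, 4.98 without mouse 15 and 5.27 in edgeR with TMM.

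These 3 clones were plentiful in the pool, with 0.804%, 2.60% and 0.527% and ranks of 21, 3 and 35, and were smaller after transplantation. Clone 205626 was 12.8 times smaller than in the pool in marrow and 49.1 times in spleen. Clone 109489 was 9.92 times smaller in marrow and 501 times in spleen, and clone 321280 2.58 and 49.1 times. Across the 45 tested clones the mean log2 ratio and the pool share were nearly unrelated, with a Spearman rho of 0.11 over clones that share the 8 libraries. The pool share was about as closely related to the mean marrow share (rho 0.50) as to the mean spleen share (rho 0.43). Of the 45 clones, 4 were higher in marrow in all 4 mice and 0 were higher in spleen in all 4, while 2 of the 41 clones of 10 to 100 CPM were higher in all 4 mice in each direction.

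The other leading clones differed between tissues in a direction that changed from mouse to mouse. Clone 1204592, the third largest at 12.7% ± 5.77 of marrow and 11.1% ± 3.09 of spleen (SD, n = 4), had ratios of 0.08, -0.98, 0.76 and 0.68. Clone 4128, the largest clone of the pool at 3.24%, took 1.02%, 1.78%, 0.667% and 4.96% of marrow and 5.44%, 12.4%, 1.48% and 2.03% of spleen, so it was larger in spleen in all but mouse 16 (log2 ratio -1.27 ± 1.84, limma adjusted p = 0.863). Clone 205681 was larger in spleen in all but mouse 15. Of the leading 12 it stood furthest above its pool share, with 0.0611% in the pool, 3.43% ± 1.49 in marrow and 5.14% ± 2.48 in spleen (SD, n = 4).

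Clone 532289 was larger in marrow in 3 mice by up to 1.44-fold, yet held 11.6% of spleen and 1.57% of marrow in mouse 15. Clone 387279 was 42.1-fold larger in spleen than in marrow in mouse 15, at 0.491% against 0.0107%, and its ratio was -2.22 in mouse 16, -0.15 in mouse 13 and 0.06 in mouse 14. Mouse 15 was thus the one against the other 3 for clones 205681, 532289 and 457303, as for clones 626161 and 283858. Clone 457303 had ratios of 0.79, 3.98, -4.72 and 0.37 in mice 13 to 16. Clone 88122 was split between the tissues, with ratios from -3.93 to 2.82. Clone 151869 held 0.0117%, 8.87%, 0.00681% and 0.225% of marrow and 0.14%, 0.0696%, 0.107% and 0.0574% of spleen, so the 8.87% in the marrow of mouse 14 was 126-fold its spleen. Clone 222912 was larger in marrow in 3 mice but held 0.00713% of marrow and 0.297% of spleen in mouse 16.

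**Figure D3:**
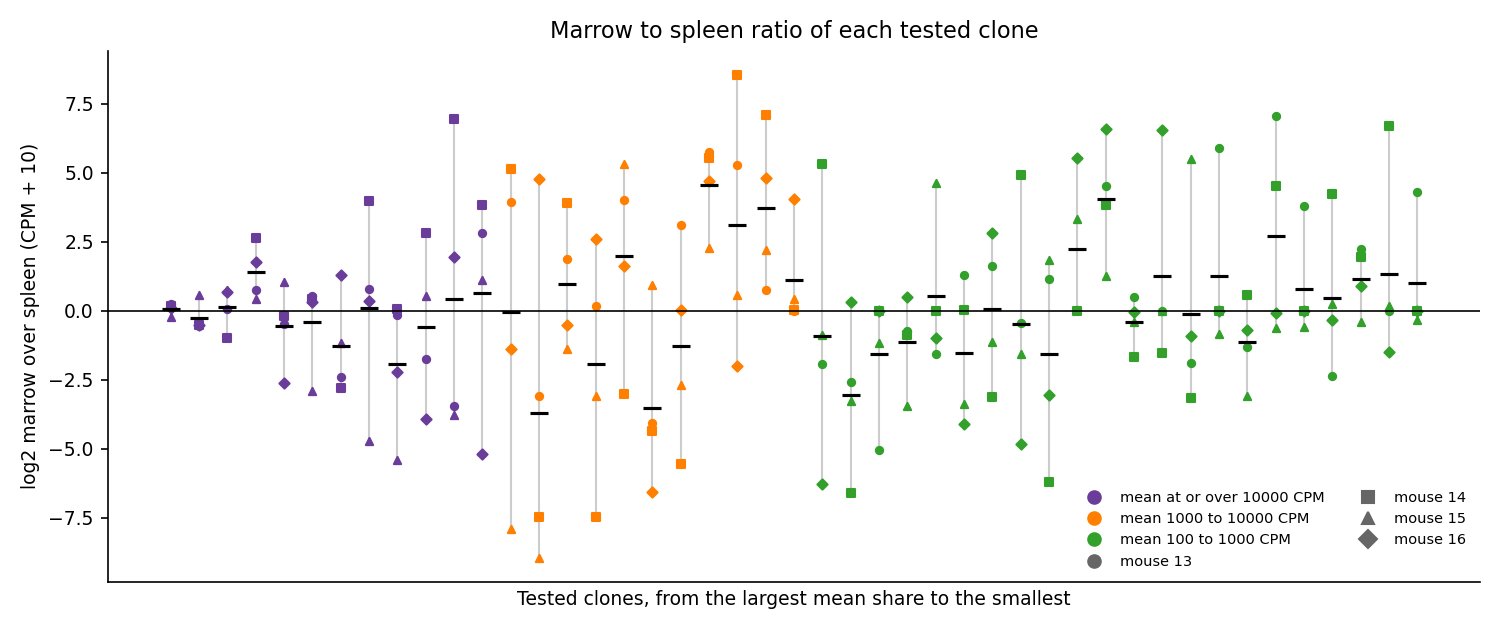
Marrow to spleen ratio on the log2(CPM + 10) scale of each of the 45 tested clones, ordered from the largest mean share to the smallest, with a symbol per mouse and a bar for the mean. The SD over mice is 0.22 to 1.84 for the first 7 clones at the left and reaches 5.10 for clone 151869 among the leading 12.

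Marrow to spleen ratios were also described by clone size. Clones were grouped by their mean over the same 8 libraries: 12 at or over 10000 CPM, which is 1% of reads, 11 of 1000 to 10000 CPM and 22 of 100 to 1000 CPM. The median absolute log2 ratio within a mouse was 1.01, 3.51 and 1.4 in these classes, or 2.01-fold, 11.4-fold and 2.65-fold. At least 8-fold differences made up 9 of 48 clone and mouse combinations among the largest clones, 26 of 44 in the middle class and 30 of 88 in the smallest. A clone can enter a class through 1 high library, as clones 588934 and 494733 did in the middle class. Clone 151869 did so in the largest class and clone 732486 in the smallest. The grouping itself thus fixes part of the spread in each class, and the classes are not ranked. The smallest class is held down by the pseudocount, since many of its values are at or near 0. Summed over its clones, the largest class took 95.8% ± 1.47 of marrow and 96.1% ± 2.11 of spleen, and the middle 3.12% ± 1.29 and 3.05% ± 1.94 (SD, n = 4).

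Several middle-sized clones were at opposite levels in the tissues of 1 mouse; the following were picked after their values were seen. Clone 74010 held 0.0402%, 4.77e-05%, 0.00245% and 2.14% of marrow in mice 13 to 16 but 0.35%, 0.188%, 1.71% and 0.0774% of spleen. Its ratio was the lowest of all clones in mice 14 and 15 (-7.49 and -8.96) and reached 4.77 in mouse 16. Clone 632433 held 0.654%, 1.60%, 0.00719% and 0.185% of marrow and 0.042%, 0.0445%, 1.97% and 0.489% of spleen. Mice 13 and 14 had more of it in marrow and mice 15 and 16 more in spleen. Clone 588934 held 1.05% of marrow and 0.0018% of spleen in mouse 14, the highest ratio of any tested clone in any mouse (8.56).

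**Figure D4:**
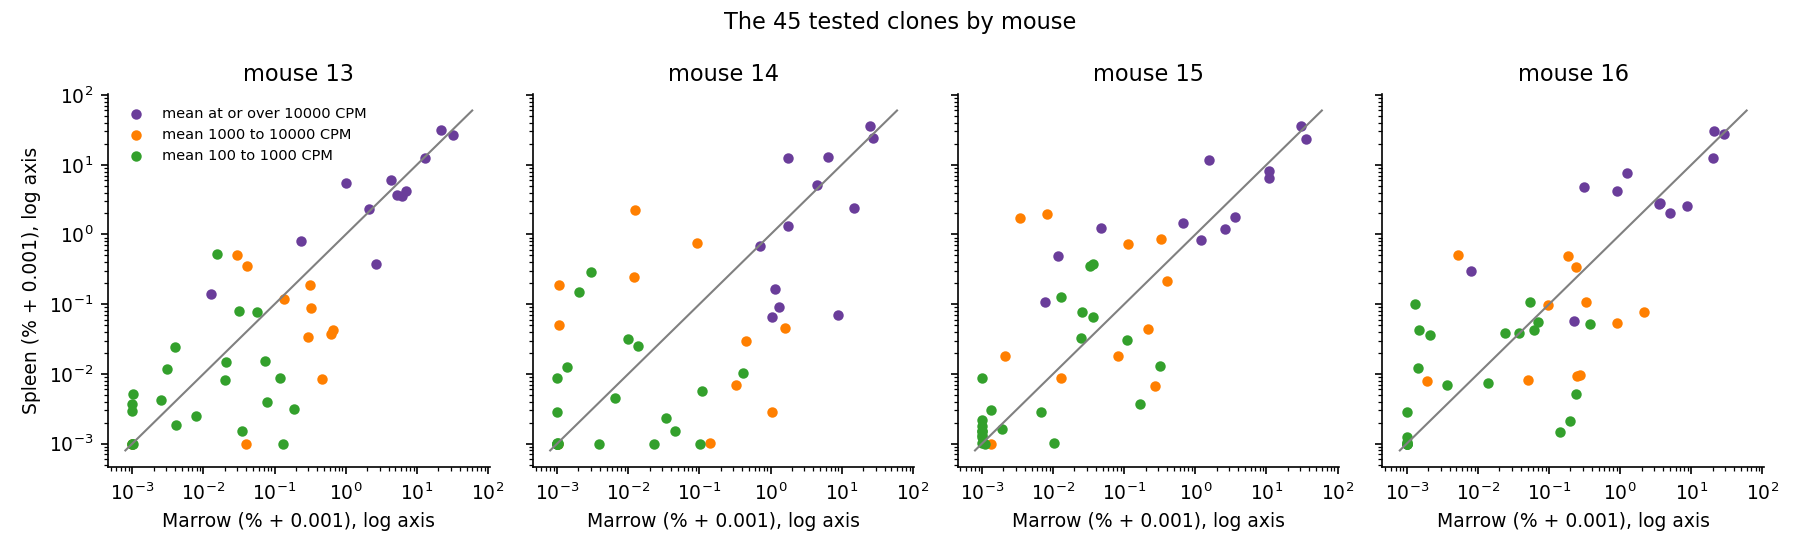
Spleen share against marrow share (percent + 0.001, log axes) of the 45 tested clones in each mouse, coloured by mean size, with the line of equal shares. Clones 626161 and 283858, at the upper right, lie near the line in all 4 mice, and all 3 size classes have clones far from it on both sides.

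Detection in the tissues was compared clone by clone at 100 CPM. In mice 13 to 16, 27, 18, 24 and 23 clones were detected in both tissues, 10, 16, 6 and 11 in marrow only, and 4, 7, 7 and 9 in spleen only. The clones of both tissues accounted for 97.5% to 99.4% of marrow reads and 96.0% to 99.8% of spleen reads. The largest clone that only 1 tissue showed was 632433 in the spleen of mouse 15, at 1.97%. Of the 43 marrow-only combinations, 7, 12, 5 and 11 in the 4 mice had at least 1 read in the spleen, so most were low there and not at 0.

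Of 68 clones detected in any library, 62 were found in at least 1 marrow and 45 in at least 1 spleen, with 23 in marrow alone and 6 in spleen alone. The 2 tissues thus shared 39 clones, which is 62.9% of the marrow clones and 86.7% of the spleen clones. These counts hold for the minimum of 100 CPM only, since at 10 CPM the spleen held more clones than the marrow in all 4 mice. A clone counted in 1 tissue alone can have reads in the other. In all 8 libraries, 11 clones were detected. Of the 607 pool clones at or over 100 CPM, 56 were detected in a marrow and 39 in a spleen. Clones found in all 4 mice numbered 25, and of their 100 combinations with a mouse, 77 were in both tissues. Clones found in 1 mouse numbered 29, and 5 of them were in both tissues of that mouse, 19 in its marrow only and 5 in its spleen only. The 2 sets also differed in size, with a median mean share of 0.00522% for clones of 1 mouse and 0.623% for clones of all 4. Clones of equal size were not compared.

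The 6 largest clones detected in 1 mouse only show both patterns. Clone 494733 held 0.89% of marrow and 0.0531% of spleen in mouse 16, and at most 0.00036% elsewhere. Clone 387784 held 0.0146% of marrow and 0.52% of spleen in mouse 13, and clone 408695 0.371% and 0.0515% in mouse 16. These 3 were detected in both tissues of their mouse. Clones 986693 and 71607, at 0.194% and 0.24% of the marrow of mouse 16, and clone 732486, at 0.187% of the marrow of mouse 13, were under 100 CPM in the spleen of that mouse (0.00109%, 0.00411% and 0.00212%). Clones 494733 and 387784 were rare in the pool, at 0.0055% and 0.00408%, whereas the other 4 held 0.212% to 0.302% of it.

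Whether marrow and spleen of 1 mouse resembled each other more than tissues of different mice was measured by Pearson's r of log2(CPM + 10) across clones, which are not independent replicates. Over all 45 clones r averaged 0.752 within a mouse and 0.696 between mice. The within-mouse values were 0.649 to 0.805 and the 12 between-mouse values 0.652 to 0.798, so they overlapped, and 2 of 4 marrows were most like their own spleen. Of the 24 ways to assign spleens to marrows, the labelled one gave the largest difference, 0.0554 (one-sided exact permutation p = 0.0417, the smallest possible, adjusted over 4 size groups 0.0833). Rank 1 was kept by Spearman correlation (0.08), with a pseudocount of 1 CPM (0.1) and with deviations from the tissue mean (0.289, on another scale). With a pseudocount of 100 CPM the difference was 0.00871 and ranked 7 (exact permutation p = 0.292), and by absolute difference it ranked 3 (exact permutation p = 0.125). Without mouse 13 it was 0.0227.

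The same comparison was made by clone size, in the same classes, which a clone can enter through 1 high library. Each class covers a limited range of mean share, which can lower r by itself, so r is compared within a class only. For the 12 largest clones r was 0.763 within and 0.663 between mice, a difference of 0.0993 that ranked 2 of 24 (exact permutation p = 0.0833, adjusted 0.111). By Spearman correlation it ranked 10, and by the mean absolute log2 difference 16, with the sign turned. For the 11 clones of 1000 to 10000 CPM r was 0.129 within and 0.122 between mice, rank 14 (exact permutation p = 0.583, adjusted 0.583), and no marrow was most like its own spleen. For the 22 clones of 100 to 1000 CPM r was 0.36 within and 0.0555 between mice, rank 1 (exact permutation p = 0.0417, adjusted 0.0833), and 3 of 4 marrows were most like their own spleen. After adjustment none of the 4 passed. The smallest p over 24 assignments is 0.0417, so an adjusted value under 0.05 needed all 4 groups to reach it. Not passing therefore decides little.

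**Figure D5:**
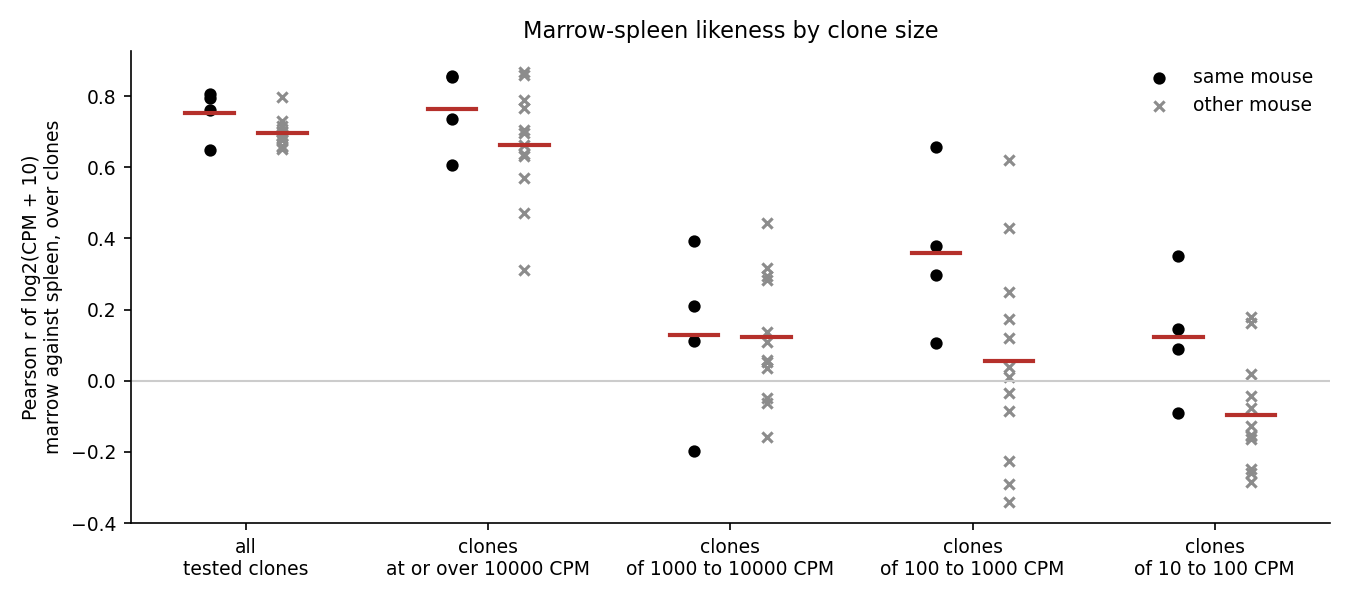
Pearson's r of log2(CPM + 10) between a marrow and a spleen across clones, for the 4 same-mouse pairs (black points) and the 12 other-mouse pairs (grey crosses), by clone size, with means as red bars. For clones of 100 to 1000 CPM the same-mouse mean is 0.36 and the other-mouse mean 0.0555, while for clones of 1000 to 10000 CPM the means are 0.129 and 0.122.

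For clones of 100 to 1000 CPM the difference kept rank 1 of 24 by Spearman correlation (0.326) and with a pseudocount of 1 CPM (0.353). It also did with deviations from the tissue mean (0.489) and by absolute difference (0.64). The last is in log2 units and not in r. Deviations are centred on the mean of the same mice, so 0.489 is not on the scale of the others either. With a pseudocount of 100 CPM the difference in r ranked 4 (0.196, exact permutation p = 0.167). Without mouse 13 it fell to 0.109, and without mouse 14 it was 0.44. In mouse 15 r was 0.656 and in mouse 14 0.106. A class added after the data were seen, 41 clones of 10 to 100 CPM, gave r of 0.124 within and -0.0956 between mice, also rank 1 of 24 (exact permutation p = 0.0417).

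Among the leading clones the overlap within and between mice was the same. The 10 largest clones of a marrow and of a spleen had 8 in common on average both within a mouse (7 to 9) and between mice (7 to 9). The clones at or over 100 CPM overlapped by 57.0% of their union within a mouse and 50.4% between mice, rank 2 of 24 (exact permutation p = 0.0833). Within a mouse that overlap was 65.9%, 43.9%, 64.9% and 53.5% for mice 13 to 16. Marrows differed more from each other than spleens did: over the 45 clones the mean absolute log2 difference was 2.96 between 2 marrows and 2.02 between 2 spleens, with 2.40 between the tissues of 1 mouse and 2.65 between tissues of different mice. The 45 clones were kept by their mean over these same libraries. Clones 588934, 986693 and 732486, among others, entered through 1 high marrow, and clones 418436 and 387784 through 1 high spleen. The choice of clones thus sets part of both spreads, and the order of marrow and spleen spread was not tested.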

How the data were processed

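Barcodes amplified from genomic DNA were counted. The values are CPM (counts per 1000000 barcode reads) as the authors deposited them, each column summing to 1000000, after filtering barcodes and collapsing 2 PCR duplicates per library. How duplicates were collapsed and which filters were used is not given in the sources used here. Bowtie 1.2.2 and R 3.6 are named per the submitters' processing notes. The molecule is genomic DNA per the labels, whose protocol covers droplet loading of single cells, so the DNA preparation is uncertain. All values (100%) were whole multiples of 1 step within 0.01 of a read, which gave the reads used for depth and for edgeR.

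mCHERRY barcodes (GFP for LSK mice) were rescaled to 1000000 per library. Detected clones were at or over 100 CPM. Clones averaging at least 100 CPM entered limma 3.58.1 (trend, mouse as block, two-sided) on log2(CPM + 10) with Benjamini-Hochberg adjustment at 0.05, and with edgeR 4.0.16 quasi-likelihood (R 4.3.3) as an alternative. Mouse-level values used exact permutation tests (Python 3.11.15, numpy 2.4.6). Marrow and spleen were paired by mouse because the labels give them the same animal. Same-mouse deviations from the tissue means correlated at 0.47, -0.04, 0.22 and 0.22 in mice 13 to 16.

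Named clones were the 12 with the highest mean share, up to 6 called clones per direction (none was called), up to 6 per direction with the same sign in all 4 mice and at least 10 CPM in every library of the higher tissue, and the 6 largest detected in 1 mouse only. Others are said to have been picked by their values. The samples, size classes and clones were chosen with earlier results of these data known. Alternatives were other minima, pseudocounts and likeness measures, CPM as deposited, centring, no replicate block, edgeR, the inverse Simpson index, each mouse left out, and mice whose libraries held under 0.1% GFP or BFP reads.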

Additional observations from a re-analysis of the deposited data

Results flagged for a closer look

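Reads of barcodes from libraries other than mCHERRY were present in all 8 libraries, and no comparison used them. GFP barcodes reached 0.0368% in marrow (mouse 15) and 0.538% in spleen (mouse 14). BFP barcodes, which no label mentions, reached 0.0149% in marrow and 0.0386% in spleen, both in mouse 15. In the spleens of mice 13 and 14, 4 GFP clones held 75.3% and 78.3% of the GFP reads, and these clones took 63.0% to 93.1% of the 8 libraries of NSG mice with LSK leukaemia. Their part in the results was not tested, and the values without mice 13 and 14 stand among the processing alternatives.

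The tissue difference in detected clones differed from that of Ptprca mice by -0.52 on the log2 scale (exact permutation p = 0.0286, adjusted 0.114).

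A sample far from the other 3 of its group was found in 13 of 48 groups examined. About 1 in 20 is flagged by chance. That share cannot be set against these groups, since some hold clones chosen for being detected in 1 mouse only. Effective clones were low in 1 marrow (5.66, mouse 15) and 1 spleen (6.03, mouse 14), and that spleen also had the fewest detected clones (25). In marrow, clones 205681 (1.26%) and 222912 (0.00713%) were low and clones 494733 (0.89%) and 986693 (0.194%) high in mouse 16, and clones 387784 (0.0146%) and 732486 (0.187%) high in mouse 13. In spleen, clone 1204592 was low (6.44%) and clone 321280 high (0.0435%) in mouse 15, and clones 494733 (0.0531%) and 71607 (0.00411%) were high in mouse 16. The high values of clones 494733, 986693, 387784, 732486 and 71607 belong to clones that were named because 1 mouse alone held them at 100 CPM, so the choice itself sets those values apart.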

How the results depend on the processing

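Limits: 4 mice per tissue, 1 library per tissue and mouse, and exact sign-flip permutation tests that cannot go below p = 0.125. The log2 ratio of detected clones was -0.14 at 10 CPM and -0.20 for any value above 0, and 0.10 to 0.26 with each mouse left out. That of effective clones was -0.0499 to 0.21 with each mouse left out and -0.15 in mice under 0.1% GFP or BFP reads. The largest clone kept its direction (-3.45 to -0.44 points). Against Ptprca mice, the difference in detected clones was 0.44 at 10 CPM. Against LSK mice, that in effective clones was 0.0148 by inverse Simpson and -0.12 to 0.14 with each mouse left out. Same-mouse minus other-mouse likeness of the largest clones was -0.0413 by absolute difference, which is in log2 units. For clones of 1000 to 10000 CPM it was -0.114 by Spearman, -0.124 with a pseudocount of 100 CPM, -0.0252 by deviations, -0.198 by absolute difference, and -0.0305 to 0.0632 with each mouse left out. The cause of these turns was not tested. Calls higher in marrow stayed at 0 in 16 alternatives, and calls higher in spleen were 1 without mouse 15 and 0 otherwise. Without the replicate block on mouse, limma called 0 clones (3 at an unadjusted p under 0.05), and the detected-clone ratio of 0.18 had exact permutation p = 0.114.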
